A study of Mus musculus with 8 samples.

Results

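The enzymes of cholesterol and fatty acid synthesis, with their transcriptional regulators, were followed as 31 genes in CD8 T cells taken from mouse tumours. The genes were listed by symbol, and all 31 were present in both gene annotations used, which share 30406 genes. 7 of them belong to the mevalonate arm (Acat2, Hmgcs1, Mvk, Pmvk, Mvd, Idi1, Fdps) and 11 to the squalene and sterol arm (Fdft1, Sqle, Lss, Cyp51, Tm7sf2, Msmo1, Nsdhl, Hsd17b7, Ebp, Sc5d, Dhcr7). A further 4 are regulators or carry sterol (Srebf1, Srebf2, Insig1, Stard4), and 9 make or modify fatty acids (Acly, Acaca, Fasn, Elovl5, Elovl6, Scd1, Scd2, Fads1, Fads2). The study profiled single CD8 T cells by 5′ RNA sequencing, with paired T-cell receptor sequencing, from wild-type C57BL/6 mice with palpable tumours of MC38, a transplantable colon carcinoma line. In experiment 1, tumours of mice given buffer or 10 mg/kg rhIL-7-hyFc under the skin were taken 7 days later, and CD8 T cells were selected with magnetic beads. rhIL-7-hyFc is a recombinant human interleukin-7 fused to a hybrid Fc. In experiment 2, mice were given 1.25 mg/kg rhIL-7-hyFc either by itself or followed by a bispecific T-cell engager (TCE) against PD-L1 and CD3ε, injected into a vein from day 3. Their tumours were taken 24 hours after the last treatment, and viable CD45+ TCRb+ CD8a+ cells were sorted. Each group is 1 library, and neither the number of mice behind it nor their age was given in the labels. The exact TCE schedule could not be read with certainty there. The experiments differ in dose, time, cell selection, gene annotation and software, so levels were compared between treatments only within an experiment.

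In the mevalonate arm, acetyl-CoA is built into isoprenoid units, and the sterol arm joins them into squalene and processes that into cholesterol. Both arms are switched on by the transcription factor SREBP-2 (Srebf2) when membrane sterol falls, and INSIG1 holds the SREBP precursor in the endoplasmic reticulum when sterol is plentiful. SREBP-1 (Srebf1) acts mainly on fatty acid synthesis, in which ACLY, ACC1 (Acaca) and FASN make palmitate, ELOVL6 lengthens it, SCD enzymes desaturate it, and ELOVL5, FADS1 and FADS2 act on polyunsaturated fatty acids. T cells need new membrane lipid when they are activated and divide.

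The promoters of 4 members are shown because these genes, which share a biosynthetic context, took different directions between cell states: Hmgcs1 and Lss from the sterol pathway, and Fasn and Elovl6 from fatty acid synthesis. Each is the 200 bases just before the gene, 5′ to 3′ on the gene's strand, from RefSeq (GRCm38.p6). Hmgcs1 lies at chr13:119690151-119690350 (+), Lss at chr10:76531388-76531587 (+), Fasn at chr11:120824548-120824747 (-) and Elovl6 at chr3:129532155-129532354 (+). Capitals mark matches, on either strand, to TCACNCCAC, a sterol response element pattern, or to CCAAT, the core of the NF-Y site. No match to one motif overlaps a match to the other in these windows, but copies of CCAAT on opposite strands overlap in Fasn.
Hmgcs1: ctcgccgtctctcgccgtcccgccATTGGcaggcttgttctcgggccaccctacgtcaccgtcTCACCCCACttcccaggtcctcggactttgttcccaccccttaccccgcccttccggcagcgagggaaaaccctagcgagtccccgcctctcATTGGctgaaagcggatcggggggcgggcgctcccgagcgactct
Lss: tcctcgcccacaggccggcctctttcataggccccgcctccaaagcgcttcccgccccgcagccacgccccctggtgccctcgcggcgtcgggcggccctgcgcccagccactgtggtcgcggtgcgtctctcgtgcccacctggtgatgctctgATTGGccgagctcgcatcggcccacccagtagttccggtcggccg
Fasn: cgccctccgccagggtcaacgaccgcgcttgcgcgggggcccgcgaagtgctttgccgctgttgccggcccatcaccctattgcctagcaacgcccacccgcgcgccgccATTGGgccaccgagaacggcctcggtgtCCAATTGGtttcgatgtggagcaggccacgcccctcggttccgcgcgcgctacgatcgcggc
Elovl6: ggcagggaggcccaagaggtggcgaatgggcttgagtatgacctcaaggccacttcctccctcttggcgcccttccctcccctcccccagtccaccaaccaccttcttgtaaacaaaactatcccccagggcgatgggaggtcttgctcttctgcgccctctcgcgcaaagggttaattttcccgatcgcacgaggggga
Hmgcs1 carries TCACNCCAC 137 bases before its start and CCAAT on the opposite strand at 176 and 45 bases. Lss has 1 CCAAT match at 62 bases, Fasn has 3 at 90, 62 and 59 bases, and Elovl6 has no match in the window. The RefSeq table, with windows of 250 bases before to 50 after each start, held 24 of the 31 members. TCACNCCAC was found in 1 of those 24, in 1.44% of all 27025 genes and in 1.24% of all 32851 promoters. CCAAT was found in 20 of the 24 members, in 41.1% of all genes and in 37.4% of all promoters. These are letter matches and not measured binding.

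A barcode was taken as a CD8 T cell when it carried at least 1 UMI (unique molecular identifier, 1 counted RNA molecule) of Cd8a or Cd8b1 and 1 of Cd3d, Cd3e or Cd3g. That kept 3975 barcodes of the buffer library, 5622 of 10 mg/kg, 10888 of 1.25 mg/kg and 10933 of 1.25 mg/kg plus TCE, with medians of 6700 to 9726 UMIs. None of the 10 T-cell markers was at 0 in any library, and a Cd4 UMI was seen in 0.409% to 1.51% of barcodes. RNA of other cells was also present. Levels are in CPM, the UMIs of a gene per 1e6 UMIs of the gated barcodes of the library or class. The sum of 10 macrophage markers, of which none was at 0, was 1119 CPM in the buffer library and 272 at 10 mg/kg. It was 3356 CPM at 1.25 mg/kg and 836 with TCE. Barcodes with macrophage RNA, here more than 2 UMIs of those markers, made up 20.2%, 3.45%, 35.0% and 7.29% of gated barcodes in that order. They held 21.2%, 4.84%, 58.5% and 16.4% of the gated UMIs. The summed tumour cell and fibroblast markers were at 2.37 to 7.66 CPM, with 1 of 7 markers at 0 in each library. Pairs of libraries shared 31 to 165 barcodes. Results are therefore also given for a strict set, chosen after seeing the data: barcodes with exactly 1 productive beta chain and at most 2 UMIs each of the macrophage markers and of the tumour cell and fibroblast markers. It holds 2253, 4698, 4964 and 7018 barcodes.

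The pathway was expressed throughout, with a wide spread between genes. Each molecule is counted once from its 5′ end, so CPM levels of different genes were set side by side without a length correction. Other differences in detection between genes were not tested. Ebp, the sterol isomerase, had the highest level of the sterol genes, at 96.7 CPM in the buffer library, 78.4 at 10 mg/kg, 88.6 at 1.25 mg/kg and 93.9 with TCE. Elovl5, the polyunsaturated fatty acid elongase, read 63.6, 126, 52.4 and 52.4 CPM in that order. In the strict set it read 65.6, 131, 80.4 and 59.2 CPM. Acly, which makes cytosolic acetyl-CoA, read 54.5, 56.7, 54.0 and 60.5 CPM. The regulator Srebf2 lay between 34.4 and 44.8 CPM, Srebf1 between 21.3 and 27.7, and Insig1 between 23.5 and 32.0. The early sterol enzyme Hmgcs1 lay between 19.1 and 35.5 CPM, and Idi1, which isomerises isopentenyl diphosphate, between 13.7 and 35.0. Sqle, squalene epoxidase and a rate-limiting step of the sterol arm, was lower, between 5.63 and 16 CPM. Acat2, the thiolase that opens the mevalonate arm, lay between 4.59 and 5.99 CPM. At the bottom stood Tm7sf2 (2.08 to 3.94 CPM), Fads2 (0.176 to 3.04 CPM) and Scd1 (0.0327 to 1.51 CPM).

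**Figure D1:**
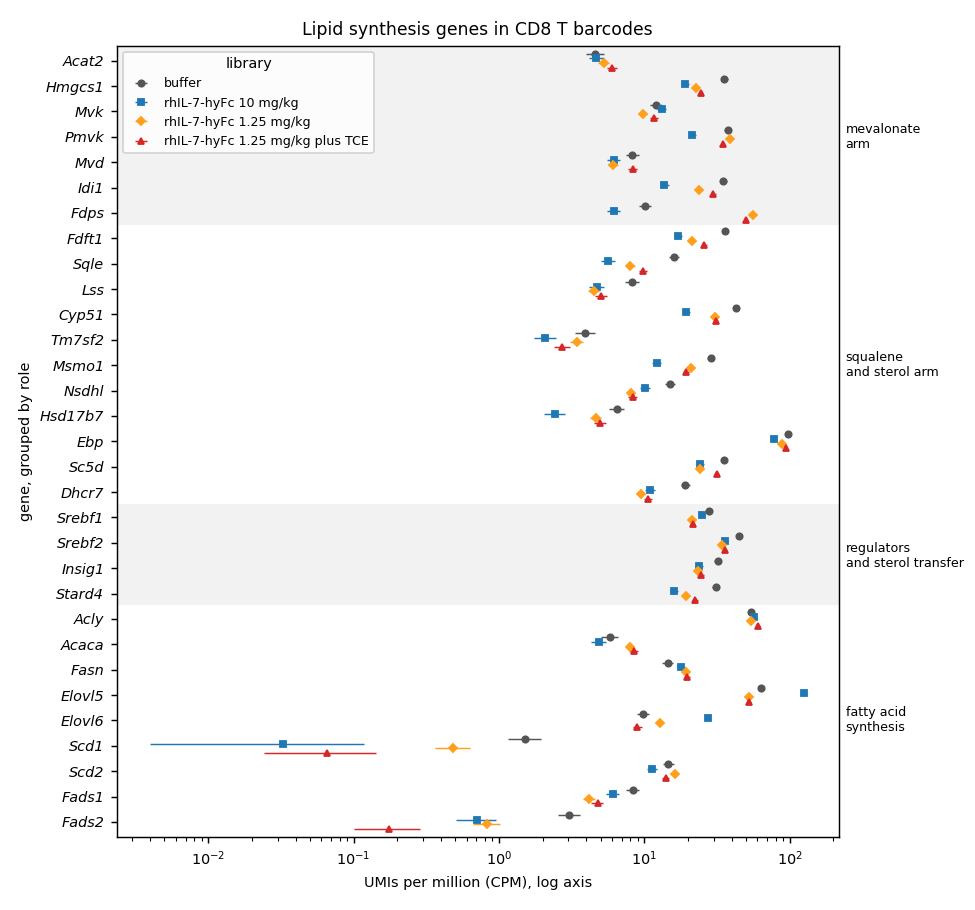
Level of each of the 31 genes in each library, in CPM on a log axis, with points for the 4 libraries and lines for the exact Poisson 95% interval (counting error only). Most sterol genes are higher in the buffer library (circles) than at 10 mg/kg (squares). Elovl5 and Elovl6 are higher at 10 mg/kg than with buffer, and Scd1 and Fads2 lie near the bottom in every library.

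Several of these levels have limits of their own. Fdps, which makes farnesyl diphosphate, read 10.1 and 6.15 CPM in the libraries of experiment 1 but 55.7 and 50.2 in those of experiment 2. The experiments were counted with different annotations (31053 and 32285 genes) and Cell Ranger versions, and their part in this gap was not tested. Scd1, a stearoyl-CoA desaturase, had only 62, 2, 53 and 6 UMIs in the buffer, 10 mg/kg, 1.25 mg/kg and TCE libraries. Of the buffer's 62, 25 fell in barcodes with macrophage RNA and 20 in the 13 barcodes with tumour RNA, groups that overlap, and 26 in neither. The most in a single barcode was 10. In the strict set Scd1 was down to 1, 0, 5 and 3 UMIs. Fads2, a desaturase of polyunsaturated fatty acids, had 125 UMIs in the buffer library, 80 of them in barcodes with macrophage RNA, and 4 in the strict set. Scd2, the related desaturase, stayed between 11.3 and 16.3 CPM. Both stay in the counts of members below, where calls of Scd1 and Fads2 rest on these UMIs.

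Cycling cells carried more sterol-synthesis RNA. Barcodes with at least 1 UMI of the proliferation genes Mki67 or Top2a made up 38.4%, 23.9%, 29.6% and 26.7% of the buffer, 10 mg/kg, 1.25 mg/kg and TCE libraries. Idi1 went from 25.7 CPM in non-cycling to 43.0 in cycling barcodes with buffer, from 9.24 to 23.0 at 10 mg/kg, from 18.1 to 30.3 at 1.25 mg/kg, and from 22.7 to 40.4 with TCE. It was higher in cycling barcodes of every library, by 0.83 on the log2 scale (SD of the 4 library values 0.28, n = 4, edgeR adjusted p = 0.00078). Sqle went from 11.2 to 20.2, 4.19 to 8.64, 5.95 to 10.5 and 8.19 to 12.1 CPM in the same order, a log2 difference of 0.74 (SD 0.20, n = 4, edgeR adjusted p = 0.0011). Fads1, which desaturates polyunsaturated fatty acids, went from 4.62 to 11.5, 4.48 to 9.35, 2.66 to 5.97 and 3.26 to 7.03 CPM. Its log2 difference was 1.09 (SD 0.11, n = 4, edgeR adjusted p = 0.00045). The strict set, described above, gave 4.14 to 6.76, 4.34 to 10.1, 2.43 to 7.64 and 3.48 to 8.44 CPM, a wider spread between libraries. Elovl6, which lengthens palmitate, went the other way, from 10.7 to 9.0, 30.9 to 20.5, 15.6 to 9.40 and 10.5 to 6.50 CPM. Its log2 difference was -0.66 (SD 0.22, n = 4, edgeR adjusted p = 0.0032), and this was not seen within Pdcd1-positive barcodes, as given further on.

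In all, 14 of the 31 members were higher in cycling barcodes and 1 was lower, against 14.5% and 18.3% of the 13466 genes tested. The members' median log2 difference was 0.24, beside -0.05 over all genes. In the mevalonate arm 5 of 7 rose (Acat2, Hmgcs1, Pmvk, Idi1, Fdps), with Fdps at 0.54 and Hmgcs1 at 0.40 on the log2 scale. The sterol arm had 4 of 11 called, Fdft1 (squalene synthase, 0.57), Sqle, Cyp51 (lanosterol demethylase, 0.53) and Hsd17b7 (0.40), and all 11 fitted differences lay above 0. Of the regulators, Stard4, a sterol carrier, rose by 0.67 and Srebf2 by 0.16, while Srebf1 (0.11, adjusted p = 0.22) and Insig1 (0.12, adjusted p = 0.25) did not pass. Of the 9 fatty acid genes, Fads1, Scd2 (0.35) and Scd1 (2.05, from the few UMIs above) rose, and Elovl6 fell. These tests used each library once as a replicate, so the p-values measure the spread of a difference between 4 libraries of different treatment. As the values are sums over cells, more expressing cells and more RNA per cell cannot be told apart.

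Cycling barcodes are also deeper and can hold other RNA. The macrophage marker sum in cycling against non-cycling barcodes was 672 against 1637 CPM with buffer, 235 against 290 at 10 mg/kg, 3671 against 3094 at 1.25 mg/kg and 1141 against 635 with TCE. Among strict barcodes, 20 of 29 members tested were higher and 1 lower, with 22.3% and 22.1% of all genes called. Idi1 was then at 1.14, Fads1 at 1.16, Sqle at 1.02, Fdps at 0.90 and Elovl6 at -0.81, and Scd1 had too few UMIs to be tested. For thinning, barcodes under 3000 UMIs were left out (692, 187, 575 and 424 in the buffer, 10 mg/kg, 1.25 mg/kg and TCE libraries). The others were thinned to 3000 UMIs, and the classes were taken from those UMIs. The members together then gave 2.44 UMIs per cycling and 1.95 per non-cycling barcode with buffer. The corresponding means were 2.02 and 1.77 at 10 mg/kg, 2.05 and 1.82 at 1.25 mg/kg, and 2.24 and 1.87 with TCE. With thinning 9 of 30 members passed as higher and 2 as lower, beside 1589 and 1291 of 11115 genes.

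**Figure D2:**
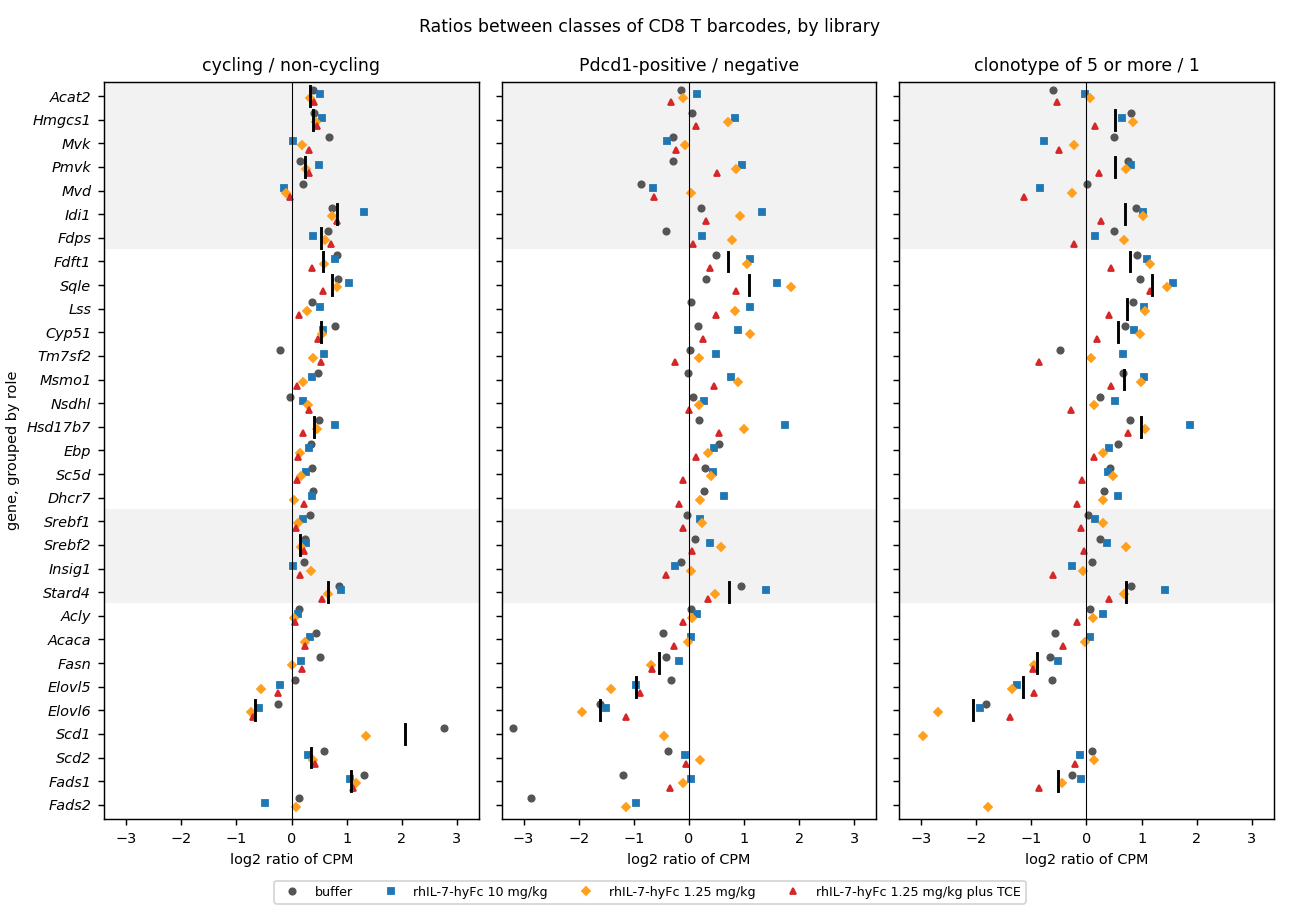
Log2 ratio of CPM between classes of CD8 T barcodes for each gene, from left to right cycling over non-cycling, Pdcd1-positive over Pdcd1-negative, and clonotypes of 5 or more barcodes over clonotypes seen once. Points are the 4 libraries (shown with at least 20 UMIs over both classes), black bars the edgeR estimate of the genes that passed an adjusted p of 0.05. Genes of the squalene and sterol arm lie mostly to the right of 0 in every panel, and Elovl6 lies left of 0 in every library in all panels.

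By Pdcd1, which encodes the inhibitory receptor PD-1 and marks antigen-experienced or chronically stimulated T cells, a few sterol genes were higher and a few fatty acid genes lower. At least 1 Pdcd1 UMI was found in 67.1% of buffer barcodes, 17.4% at 10 mg/kg, 58.8% at 1.25 mg/kg and 64.1% with TCE. Elovl6 went from 20.5 CPM in Pdcd1-negative to 6.68 in Pdcd1-positive barcodes with buffer, from 32.6 to 11.5 at 10 mg/kg, from 28.4 to 7.43 at 1.25 mg/kg and from 14.5 to 6.60 with TCE. Its 4 Pdcd1-positive values all lay below the 4 Pdcd1-negative ones, and the log2 difference was -1.61 (SD 0.33, n = 4, edgeR adjusted p = 0.0058). Elovl5 went from 75.4 to 60.1, 143 to 73.0, 97.6 to 36.8 and 77.2 to 42 CPM (-0.96, SD 0.44, n = 4, edgeR adjusted p = 0.035). Fasn, fatty acid synthase, went from 17.9 to 13.4, 18.5 to 16.3, 26.8 to 16.7 and 26.6 to 16.7 CPM (-0.55, SD 0.24, n = 4, edgeR adjusted p = 0.027). Each of these genes was lower in the Pdcd1-positive barcodes of every library.

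Sqle went the opposite way, from 13.5 to 16.8, 3.79 to 11.4, 2.74 to 9.85 and 6.22 to 11.2 CPM. Its log2 difference was 1.09 (SD 0.70, n = 4, edgeR adjusted p = 0.045), smallest in the buffer library. Fdft1, which makes squalene, went from 27.4 to 38.3, 13.3 to 28.6, 11.9 to 24.7 and 21.3 to 27.8 CPM (0.70, SD 0.38, n = 4, edgeR adjusted p = 0.031). Stard4 went from 18 to 34.7, 11.4 to 30.0, 15.1 to 21.0 and 18.8 to 23.9 CPM (0.73, SD 0.48, n = 4, edgeR adjusted p = 0.048). These were the 3 members called higher and the 3 above the ones called lower, out of 31, with 8.21% and 8.91% of 13104 genes called, so that the members' share in each direction was near that of all genes. Squalene and sterol genes had a median log2 difference of 0.47 and all 11 above 0, and fatty acid genes, Scd1 and Fads2 included, a median of -0.55 with none of 9 above 0, beside -0.01 over all genes. None of the 7 mevalonate genes passed in edgeR. At an unadjusted edgeR p under 0.05, 2 were higher and 2 lower, beside 2207 and 2355 of 13104 genes. Srebf1 (0.02), Srebf2 (0.23) and Insig1 (-0.26) did not pass, with adjusted p of 0.92, 0.21 and 0.19. These counts depended on single libraries, as did those over all genes. Without the 1.25 mg/kg library no member was higher and 1 lower (50 and 113 of 12771 genes), without the 10 mg/kg library none and 1 (248 and 176 of 12977), and without the TCE library 1 and 1 (505 and 371 of 12950). Without the buffer library 7 were higher and 3 lower (1712 and 1775 of 13110 genes).

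In the buffer library the Pdcd1-negative barcodes held more foreign RNA than the Pdcd1-positive ones, at 3479 against 433 CPM of macrophage markers, with 19.0 CPM of tumour cell and fibroblast markers in the Pdcd1-negative ones. The order was the opposite at 1.25 mg/kg (2279 against 3728 CPM) and with TCE (236 against 1087), and at 10 mg/kg the values were 261 and 306. Restricted to the strict set, 11 of 29 members were higher and 3 lower, with 22.4% and 22.6% of all genes called. The higher ones were Hmgcs1, Pmvk, Idi1, Fdft1, Sqle, Lss, Cyp51, Msmo1, Hsd17b7, Ebp and Stard4, and the lower ones again Fasn, Elovl5 and Elovl6. Sqle in the strict set read 4.57, 3.52, 2.69 and 5.85 CPM in Pdcd1-negative barcodes of the buffer, 10 mg/kg, 1.25 mg/kg and TCE libraries, and 16.3, 11.4, 12.1 and 12.9 in Pdcd1-positive ones. The groups did not overlap, and the log2 difference was 1.53 (edgeR adjusted p = 0.00065). Elovl6 read 22.9, 33.3, 34.0 and 15.5 CPM in Pdcd1-negative and 6.14, 9.55, 5.69 and 6.08 in Pdcd1-positive barcodes (-2.02, edgeR adjusted p = 0.00032).

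Cycling was then tested within each Pdcd1 state. Within Pdcd1-negative barcodes cycling went with 12 members higher and 1 lower (11.3% and 9.01% of all genes called). Within Pdcd1-positive barcodes it went with 15 higher and none lower (16.6% and 11.9%). None was lower there at an unadjusted edgeR p under 0.05 either, beside 2398 of 12705 genes. Idi1 was at 0.88 and 0.72 on the log2 scale in these strata (edgeR adjusted p = 0.0006 and 0.00024), and Fads1 at 1.33 and 1.24. Elovl6 was lower with cycling in Pdcd1-negative barcodes (-0.58, in 3 of 4 libraries, edgeR adjusted p = 0.016). In Pdcd1-positive ones its difference was 0.02 (edgeR adjusted p = 0.91), with 6.31 to 6.94 CPM with buffer, 10.2 to 12.6 at 10 mg/kg, 7.30 to 7.55 at 1.25 mg/kg and 7.15 to 5.89 with TCE. The strict set gave -0.67 and -0.14 (edgeR adjusted p = 0.00016 and 0.55). Acaca, the first committed enzyme of fatty acid synthesis, passed in Pdcd1-negative barcodes alone (0.48), and Mvk, mevalonate kinase, in Pdcd1-positive ones alone (0.52). A test of the interaction, by edgeR, the one tool run, called no member among 30 (0.0246% and 0.115% of all genes called). At an unadjusted edgeR p under 0.05, 2 members were higher and 6 lower, beside 304 and 572 of 12214 genes. For Sqle the interaction was -0.77 (edgeR adjusted p = 0.32) and for Elovl6 0.59 (edgeR adjusted p = 0.22).

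The Pdcd1 differences were tested in each cycling state in turn. Among non-cycling barcodes 7 of 30 members were higher (Fdft1, Sqle, Lss, Cyp51, Msmo1, Hsd17b7, Stard4) and 4 lower (Fasn, Elovl5, Elovl6, Fads2), with 10.3% and 10.5% of genes called. Over all classes, 80 of 125 Fads2 UMIs with buffer, 28 of 43 at 10 mg/kg, 63 of 90 at 1.25 mg/kg and 5 of 16 with TCE fell in barcodes with macrophage RNA, and the strict set had too few of its UMIs for a test. Sqle was at 1.35 there (SD 0.39, n = 4, edgeR adjusted p = 0.0088) and Elovl6 at -1.76 (SD 0.33, n = 4, edgeR adjusted p = 0.0037). Among cycling barcodes none was higher in edgeR, and Fasn (-0.62) and Elovl6 (-1.19) were lower, with 2.66% and 1.97% of genes called. At an unadjusted edgeR p under 0.05, 2 members were higher there, beside 1310 of 11775 genes. Strict cycling barcodes gave 11 higher and 3 lower members (12.8% and 12.5% of genes), and strict non-cycling ones 11 higher and 6 lower (22.1% and 22%). Mvk (-0.67), Insig1 (-0.37) and Fads1 (-0.69) joined the lower ones in the strict non-cycling set.

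**Figure D3:**
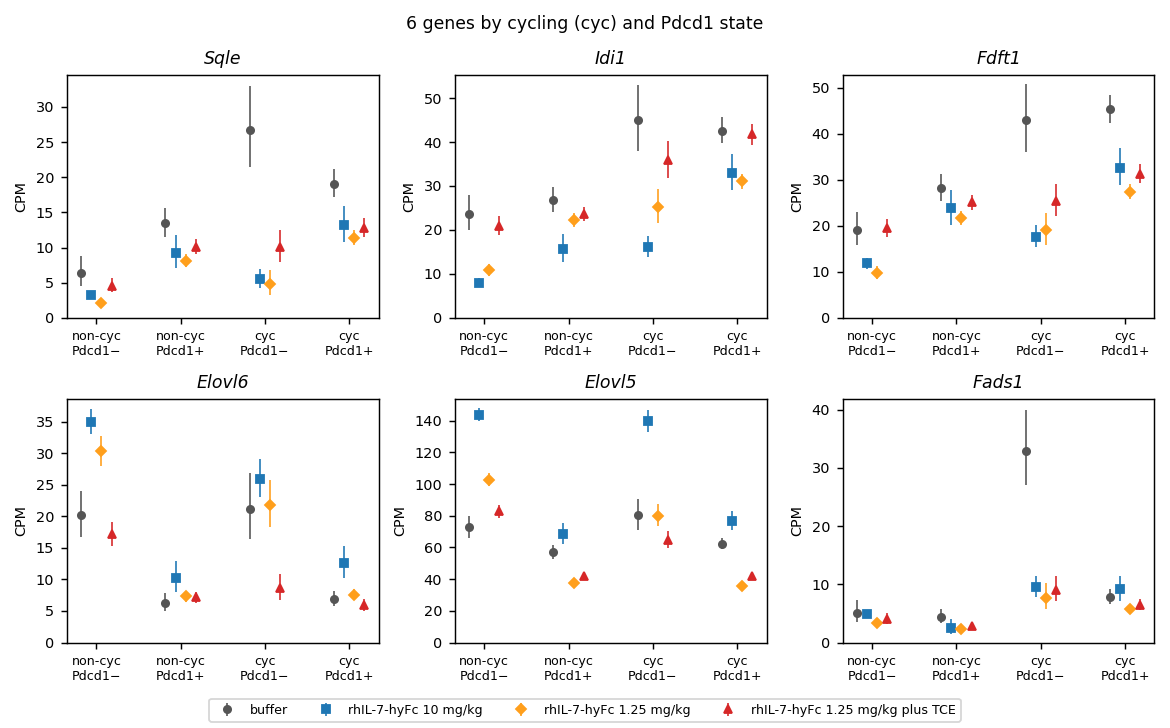
CPM of 6 genes by cycling (cyc) and Pdcd1 state in the 4 libraries, with exact Poisson 95% intervals (counting error only) as lines. Elovl6 and Elovl5 are highest in Pdcd1-negative classes, and Sqle, Idi1 and Fdft1 are high in the cycling Pdcd1-positive class. For Sqle and Fads1, the buffer library's cycling Pdcd1-negative class stands apart from that of the 10 mg/kg library.

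Within experiment 1, the buffer library's cycling Pdcd1-negative class stood apart from that of the 10 mg/kg library. Fads1 read 33.0 CPM there against 9.49 at 10 mg/kg, and Sqle read 26.7 against 5.47. In the other experiment, at 1.25 mg/kg and with TCE, Fads1 read 7.74 and 9.08 CPM, and Sqle 4.80 and 10.1. In the strict set Fads1 came to 8.69, 10.0, 9.71 and 9.13 CPM in the buffer, 10 mg/kg, 1.25 mg/kg and TCE libraries. Sqle came to 8.69, 5.29, 7.10 and 11.0 in that order, with 11 Sqle UMIs in the buffer class. Values of the buffer's Pdcd1-negative barcodes outside the strict set thus rest in part on barcodes without a single T-cell receptor or with foreign RNA.

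Expanded clones had more sterol-pathway RNA and less RNA for fatty acid elongation than clonotypes seen once. Clonotypes came from the receptor sequences, which covered 2928, 5359, 7124 and 8255 gated barcodes of the buffer, 10 mg/kg, 1.25 mg/kg and TCE libraries. Sqle, in barcodes of clonotypes seen once, 2 to 4 times and at least 5 times, read 8.44, 15.9 and 16.5 CPM with buffer and 4.33, 11.6 and 12.8 at 10 mg/kg. It read 4.04, 11.0 and 11.0 CPM at 1.25 mg/kg and 6.36, 8.45 and 14.1 with TCE. Between clonotypes of at least 5 and those seen once the log2 difference was 1.18, in the same direction in 4 of 4 libraries (SD 0.28, n = 4, edgeR adjusted p = 0.0012). Elovl6 read 18.2, 3.75 and 5.12 CPM with buffer, 30.9, 8.84 and 8.07 at 10 mg/kg, 25.9, 6.76 and 3.98 at 1.25 mg/kg, and 13.2, 6.40 and 5.01 with TCE. Its difference of -2.06 was larger than that of any other of the 30 members tested (SD 0.54, n = 4, edgeR adjusted p = 0.001).

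Of 30 members tested, 10 were higher in clonotypes of at least 5 and 4 were lower, with 18.2% and 19.1% of 12708 genes called. The higher ones were Hmgcs1 (0.51), Pmvk (0.52) and Idi1 (0.69) of the mevalonate arm, Fdft1 (0.80), Sqle, Lss (lanosterol synthase, 0.73), Cyp51 (0.57), Msmo1 (0.68) and Hsd17b7 (1.00) of the sterol arm, and Stard4 (0.71). The lower ones were all fatty acid genes: Fasn (-0.89), Elovl5 (-1.15), Elovl6 and Fads1 (-0.52, edgeR adjusted p = 0.042). Fasn went from 18.4 CPM in clonotypes seen once to 11.6 in those of at least 5 with buffer, 19.0 to 13.2 at 10 mg/kg, 27.3 to 14.2 at 1.25 mg/kg and 26.4 to 13.4 with TCE. The expanded clones lay below the single ones in each library and the groups did not overlap. Elovl5 went from 86.3 to 56.0, 139 to 58.3, 92.1 to 35.9 and 74.9 to 38.6 CPM, again without overlap. The share of higher members, 10 of 30, lies above the share over all genes, and that of lower members, 4 of 30, lies below it.

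In clonotypes of 2 to 4, Fdft1 (0.58), Sqle (0.94) and Cyp51 (0.56) were higher than in those seen once. Fasn (-0.91), Elovl5 (-0.95) and Elovl6 (-1.85) were lower. These 3 higher and 3 lower of 29 tested were near the shares over all genes (9.92% and 10.5% called). The macrophage marker sum in clonotypes of at least 5 against those seen once was 328 against 427 CPM with buffer, 395 against 169 at 10 mg/kg, 2639 against 2270 at 1.25 mg/kg and 486 against 247 with TCE. The strict set gave 11 members higher and 3 lower (20.6% and 21.6% of genes called); Ebp was added and Fads1 no longer passed. Clone size, Pdcd1 and cycling go together, so clone size was also tested among non-cycling Pdcd1-positive barcodes alone. There Fdft1 (0.46), Msmo1 (0.42) and Stard4 (0.46) were higher and Fasn (-0.82), Elovl5 (-0.76) and Elovl6 (-1.25) lower. These 3 higher and 3 lower of 29 tested were near the shares over all genes (8.17% and 8.53% called). The members' median log2 difference was 0.03. Elovl6 went from 13.2 to 4.08 CPM with buffer, 13.9 to 7.56 at 10 mg/kg, 10.8 to 4.73 at 1.25 mg/kg and 11.0 to 4.92 with TCE. Within that class of the strict set, 2 of 29 were higher (Msmo1, Stard4) and 3 lower. Neither share was above that over all genes (10.7% and 10.6%).

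Neighbouring lipid genes were read from 4 further lists, to be set against the shares over all genes given above for each contrast (14.5% higher and 18.3% lower by cycling, 8.21% and 8.91% by Pdcd1, 18.2% and 19.1% by clone size). Of other synthesis genes, 5 of 18 were higher and 2 lower in cycling barcodes, among them Me1 (malic enzyme, 1.63, edgeR adjusted p = 0.034). Acss2, which makes acetyl-CoA from acetate, was lower by cycling (-0.74), Pdcd1 (-1.17, the one call among 17) and clone size (-1.22). With clone size 6 of 16 in that list were higher and 2 lower. Of 9 genes of LXR signalling and sterol efflux, none was higher in edgeR in any of the 3 contrasts. At an unadjusted edgeR p under 0.05 none was higher either, beside 2531 of 13466, 2207 of 13104 and 2966 of 12708 genes. By cycling, Pdcd1 and clone size, 3, 3 and 4 of the 9 were lower. Mylip, a ubiquitin ligase induced by LXR, was at -0.77, -1.37 and -1.64 in that order, with edgeR adjusted p of 0.0012, 0.0077 and 0.00097. Abcg1, which exports sterol, was at -0.70, -1.05 and -1.15, and Rxra, the partner of LXR, at -1.34 by Pdcd1 and -1.41 by clone size. Of 15 uptake, storage and transport genes, 1 was higher and 2 lower by cycling (Npc2 -0.40, Scarb1 0.40), 1 and 1 by Pdcd1 (Dgat1 0.31, Npc1 -0.51), and 4 and 2 by clone size (Scarb1 -0.90, Soat2 -0.81). Of 17 fatty acid oxidation genes, 3 were higher and 5 lower by cycling (Decr1 0.30, Slc25a20 -0.29). By Pdcd1, 3 were higher and none lower (Eci1 0.66, Decr1 0.64). At an unadjusted edgeR p under 0.05, 2 were lower by Pdcd1, beside 2355 of 13104 genes. Clone size gave 4 higher and 3 lower (Acadvl -0.67, Acadl 0.63). The oxidation counts by clone size, and the higher ones by cycling, lie near the shares over all genes.

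In experiment 1, sterol-pathway RNA was lower and fatty acid elongase RNA higher in the 10 mg/kg library than in the buffer library. With 1 library per group there is no test here. A gene is called different when the libraries differ by at least 1.5-fold, 1 of them reaches 5 CPM, and the 95% interval of the ratio, which covers counting error only, leaves out 1. Sqle read 16 CPM with buffer and 5.63 at 10 mg/kg, a log2 ratio of -1.51 (interval -1.70 to -1.32). Hsd17b7, of sterol demethylation, read 6.47 and 2.42 CPM (-1.42), and Idi1 35.0 and 13.7 (-1.35). Elovl6 read 9.79 and 27.6 CPM (1.49, interval 1.33 to 1.65), and Elovl5 63.6 and 126 (0.99, interval 0.92 to 1.05). Of 27 members measured, 2 were called higher and 12 lower, with 6.33% and 21.4% of 9067 genes called. Also lower were Hmgcs1 (-0.90), Pmvk (-0.80), Fdps (-0.72), Fdft1 (-1.08), Lss (-0.80), Cyp51 (-1.14), Msmo1 (-1.24), Dhcr7 (-0.81) and Stard4 (-0.96). The members' median log2 ratio was -0.54, beside -0.21 over all genes. The summed mevalonate arm went from 143 to 84.3 CPM, the sterol arm from 308 to 187, the regulators from 135 to 101 and the fatty acid genes from 176 to 251. Among the fatty acid genes only Elovl5 and Elovl6 were called. Of the other measured ones, Fasn (0.31) and Acly (0.06) lay above 0, and Acaca (-0.25), Scd2 (-0.37) and Fads1 (-0.46) below it. TMM scaling moves all log2 ratios by 0.27 and left 2 members higher and 8 lower, beside 1163 and 1139 of 8999 genes (574 and 1942 of 9067 without it).

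The libraries of experiment 1 also differed in their make-up: Pdcd1-positive barcodes were 67.1% with buffer and 17.4% at 10 mg/kg, and their share in the library difference was not tested. Within Pdcd1-negative barcodes of the strict set, 1 of 26 members was higher (Elovl5) and 1 lower (Stard4), with 3.88% and 10.7% of genes called. Sqle read 4.57 and 3.52 CPM there (-0.38, interval -1.06 to 0.38), Idi1 13.3 and 9.22 (-0.52), Fdft1 15.1 and 12.8 (-0.23), Elovl6 22.9 and 33.3 (0.54) and Elovl5 90.8 and 146 (0.69). Within Pdcd1-positive barcodes of the strict set, Elovl6 was higher (6.14 to 9.55 CPM, 0.64) and Mvd (-0.87) and Msmo1 (-0.59) lower among 28 measured, with 3.09% and 2.74% of genes called. Sqle read 16.3 and 11.4 CPM there (-0.51, interval -0.83 to -0.20) and Idi1 34.2 and 23.1 (-0.57). All gated Pdcd1-negative barcodes gave 2 higher and 19 lower of 29 (4.91% and 28.7% of genes), the class in which the buffer library carried 3479 CPM of macrophage markers and the 10 mg/kg library 261. All gated Pdcd1-positive barcodes gave 1 higher and 2 lower (2.46% and 4.14%). Over the whole strict set the count was 2 higher and 11 lower (8.13% and 17.5% of genes called). By clone size, barcodes of clonotypes seen once gave 3 higher and 7 lower of 27 (3.87% and 13.2%), and 3 and 5 in the strict set (4.09% and 13%). Those of clonotypes of at least 5 gave 1 higher and 3 lower (2.99% and 2.97%), and 1 and 2 in the strict set (3.06% and 3.08%).

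**Figure D4:**
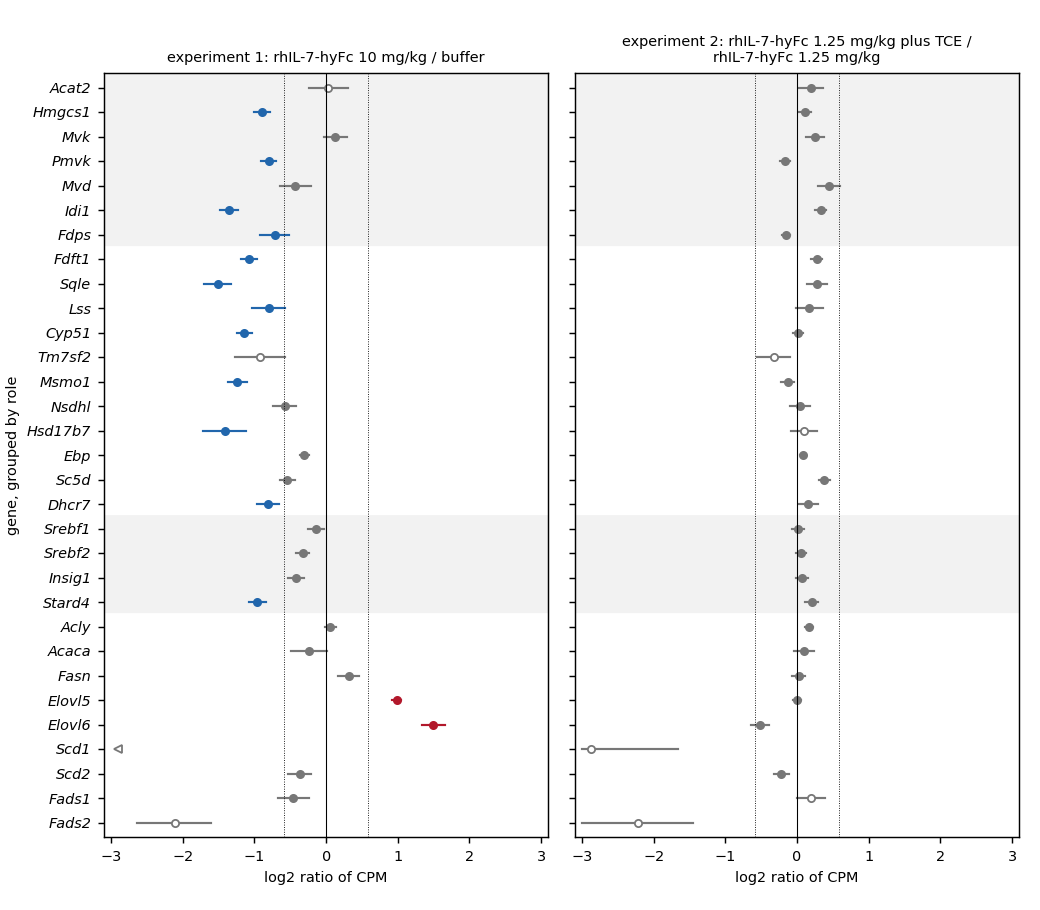
Log2 ratio of CPM, treated over control library, for each gene in experiment 1 (left) and experiment 2 (right), with 95% intervals for counting error only. Colour marks the called genes, open points those under 5 CPM in both libraries and dotted lines 1.5-fold, and values beyond the axis are drawn at its edge. On the left 12 genes are called lower and Elovl5 and Elovl6 higher, and Tm7sf2, Scd1 and Fads2 lie below the line as open points. On the right no gene is called.

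In experiment 2, none of 26 members was called in either direction between 1.25 mg/kg plus TCE and 1.25 mg/kg alone, with 2.54% and 9.01% of 9308 genes called. The members' median log2 ratio was 0.09, beside 0.08 over all genes, and their sum was 653 CPM alone and 681 with TCE. The largest measured ratio was that of Elovl6, 12.8 CPM alone and 8.93 with TCE (-0.52). In the strict set Elovl6 read 19.2 and 9.70 CPM (-0.99) and was the member called lower, with none called higher (1.74% and 2.76% of genes). By Pdcd1 state, differences appeared in the Pdcd1-negative barcodes, where 6 of 26 members were higher and 1 lower (6.14% and 9.51% of genes called). Strict barcodes gave 9 and 1 (6.66% and 4.13% of genes). Fdft1 went from 10.4 to 23.1 CPM (1.16, interval 0.89 to 1.44), Sqle from 2.69 to 5.85 (1.12, interval 0.58 to 1.69) and Idi1 from 11.9 to 24.4 (1.03, interval 0.77 to 1.29). The others were Mvd (0.95), Sc5d (sterol desaturase, 0.80), Cyp51 (0.73), Msmo1 (0.67), Fdps (0.66) and Srebf2 (0.63). Elovl6 went from 34.0 to 15.5 CPM (-1.14, interval -1.35 to -0.92), and Elovl5 from 119 to 81.0 (-0.56), short of 1.5-fold.

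Among Pdcd1-positive barcodes of experiment 2 no member was called, in all gated barcodes (3.04% and 9.03% of genes called) or in the strict set (2.28% and 2.13%). Strict Fdft1 read 31.6 and 29.3 CPM (-0.11, interval -0.27 to 0.05), Sqle 12.1 and 12.9 (0.09, interval -0.16 to 0.35), Idi1 32.7 and 32.0 (-0.03, interval -0.19 to 0.12) and Elovl6 5.69 and 6.08 (0.10, interval -0.28 to 0.48). Whether the 2 Pdcd1 classes differ in their response was not tested, since each has 1 library per group. Barcodes of clonotypes seen once gave 6 higher and 1 lower (5.32% and 9.26% of genes), and in the strict set 10 and 1 (6.65% and 3.99%). Clonotypes of at least 5 gave none in either direction (3.28% and 8.75%), and in the strict set 1 lower (2.48% and 2.4%), Fdps (-0.59).

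**Figure D5:**
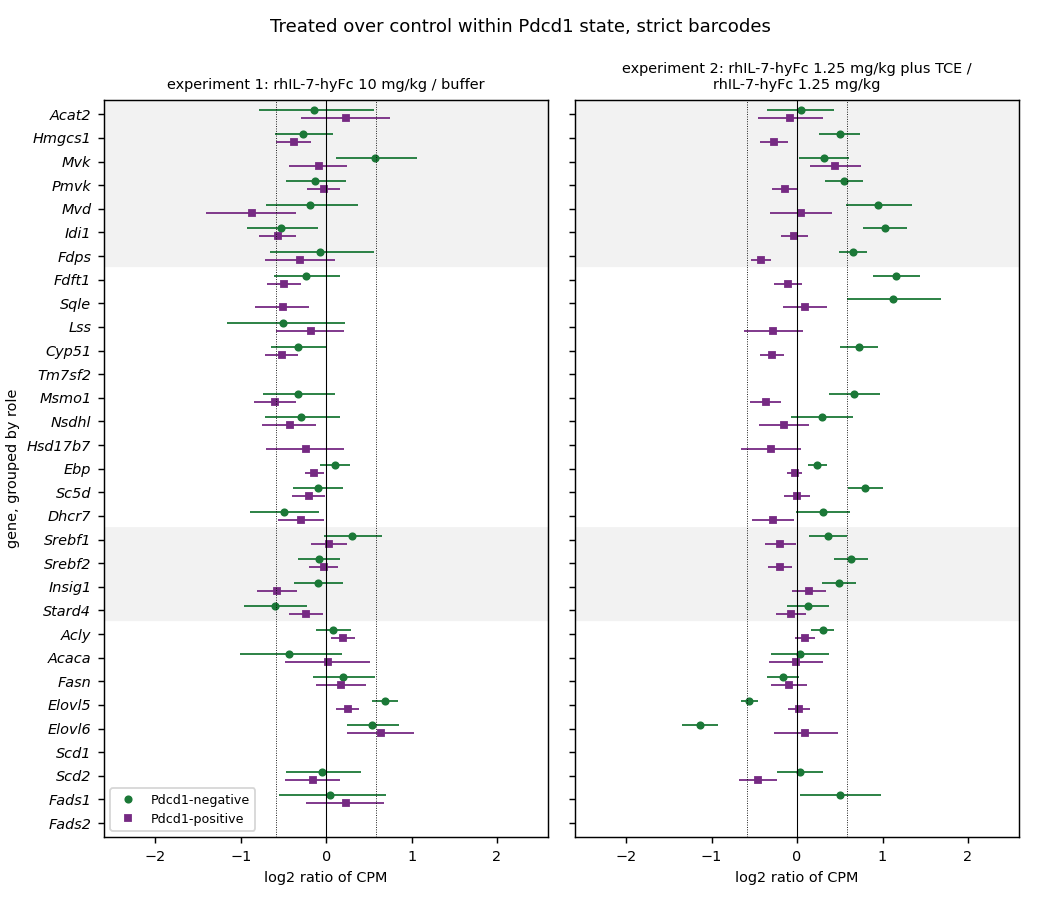
Log2 ratio of CPM, treated over control, in Pdcd1-negative (circles) and Pdcd1-positive (squares) barcodes of the strict set, in experiment 1 (left) and experiment 2 (right), with 95% intervals for counting error only and dotted lines at 1.5-fold. Genes under 5 CPM in both libraries are left out. On the right 9 genes lie beyond the line for Pdcd1-negative barcodes, with Elovl6 beyond it on the other side, and none for Pdcd1-positive ones.

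Lists of neighbouring genes were compared in the same way, beside 6.33% higher and 21.4% lower over all genes in experiment 1 and 2.54% and 9.01% in experiment 2. In experiment 1 other synthesis genes gave 1 higher (Acss2, 10.4 to 22.5 CPM, 1.11) and 5 lower of 16, among them Hsd17b12 (69.8 to 38.5 CPM, -0.86). Uptake and storage genes gave 5 lower of 10, among them Fabp5, a fatty acid binding protein (148 to 35.7 CPM, -2.05), and Plin2, a lipid droplet protein (81.7 to 32.8 CPM, -1.32). LXR and efflux genes gave 1 lower of 6 (Nr1h3, encoding LXRα, 6.44 to 1.59 CPM), and oxidation genes 3 lower of 16 (Eci1 -0.88, Cpt2 -0.84), both near the share over all genes. In experiment 2 no other synthesis gene was called among 16. Uptake and storage genes gave 6 lower of 10, with Fabp5 going from 309 to 62.8 CPM and Plin2 from 213 to 77.6. LXR and efflux genes gave 4 lower of 7, led by Nr1h3 (17 to 2.13 CPM) and Abca1 (7.61 to 3.13 CPM), and oxidation genes 2 higher of 17 (Hadh 0.77, Cpt1a 0.73). The macrophage marker sum went from 1119 to 272 CPM in experiment 1 and from 3356 to 836 in experiment 2, and its part in these list differences was not tested. In the strict Pdcd1-negative barcodes of experiment 2, uptake and storage genes gave none called of 9, and LXR and efflux genes 2 lower of 6.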

How the data were processed

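Gene expression in 4 libraries of tumour CD8 T cells, with 4 matching T-cell receptor libraries, was analysed from the UMI counts per gene and barcode that the authors deposited. These whole-number counts were made with Cell Ranger 4.0.0 (experiment 1) and 6.1.2 (experiment 2), per the file headers. GRCm38 was the genome, per the submitters' processing notes. The version used for the receptor contigs was not given in the sources used here. Gene coordinates were checked against GENCODE.

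Barcodes with at least 500 genes and at most 10% mitochondrial UMIs were kept and gated on Cd8 and Cd3 UMIs. No doublet caller was run; receptor chains and markers served instead. Gated totals were 41144471, 61120884, 109627615 and 91111930 UMIs in the buffer, 10 mg/kg, 1.25 mg/kg and TCE libraries. For cell states and clone sizes (10 tests in all), counts were summed per library and class and tested with edgeR 4.0.16 (quasi-likelihood, TMM, filterByExpr, library as a block, 8 sums and 3 residual degrees of freedom; 16 sums for the interaction), with Benjamini-Hochberg adjustment over all genes and a threshold of 0.05. The edgeR test was also run on data simulated with a fixed dispersion and the same class difference in every library. There it recovered 70% of 1.5-fold and 100% of 2-fold changes for cycling, 64% and 100% for Pdcd1, and 58% and 99% for clone size. Differences that vary between libraries were not simulated. Treatments have 1 library each: CPM carry exact Poisson 95% intervals and ratios exact conditional binomial ones, both for counting error only. Clonotypes are the deposited ones.

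The members, gene lists and classes were chosen with earlier results of these data known. Named beside the members are, from each further list, up to 2 called genes with the largest log2 ratio; for experiment 2 and for repeated genes across contrasts a few were chosen after their values were seen. Some genes of these lists are counted but not reported here by name. Alternatives were DESeq2 1.42.0, library totals, other filters, no block, each library left out, thinning to 3000 UMIs, stricter gates and classes, macrophage RNA left out, TMM or a 20 CPM minimum for treatments, clonotypes counted once, and, chosen after seeing the data, the strict set. Software was R 4.3.3 and Python 3.11.15.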

Additional observations from a re-analysis of the deposited data

How the results depend on the processing

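Counts over all genes stand beside the members', since they moved too. Without the library as a block (no replicate block), no member was higher or lower by cycling (531 and 9 of 12770 genes), none was higher and 1 lower by Pdcd1 (407 and 328 of 12437), and 6 were higher by clone size (799 of 11972). Leaving out 1 library in turn gave 9 to 13 members higher and 1 to 2 lower by cycling (9 without 1.25 mg/kg, beside 1425 of 12787 genes; 2 lower without buffer, beside 2198 of 13354), 0 to 7 higher and 1 to 3 lower by Pdcd1, and 6 to 12 higher by clone size (6 without 1.25 mg/kg, beside 1266 of 12279 genes). For cycling, thinning gave 9 higher and 2 lower (1589 and 1291 of 11115 genes), leaving out macrophage RNA 22 higher (21.1% of genes), and DESeq2 and no filter 2 lower each (2322 of 13466 and 2149 of 19909). Library totals in place of TMM moved the split over all genes from 1946 higher and 2460 lower to 2414 and 1547 by cycling, and from 2314 and 2432 to 2825 and 1834 by clone size, with 18 and 1, and 11 and 3 members. Pmvk turned under thinning, to -0.036 (edgeR adjusted p = 0.82). For Pdcd1, DESeq2 gave 7 higher (1730 of 13104 genes), the stricter gate 10 (1737 of 12923), and the strict set 11 (22.4%). Macrophage RNA left out gave 8 higher and 5 lower (16.1% and 17.5% of genes), and thinning 4 higher and 6 lower (948 and 1150 of 12080). In experiment 1, a minimum of 20 CPM gave 7 lower (904 of 5429 genes), and Fdps turned to 0.17 with each clonotype counted once. In experiment 2, thinning gave 1 higher and 1 lower (257 and 715 of 9233 genes), each clonotype counted once 4 and 1 (411 and 612 of 9083), and 1 was lower with macrophage RNA left out (at most 2 UMIs, 247 of 8972; none, 246 of 8955) and in the strict set (247 of 8962). The cause of these shifts was not tested, beyond the fewer genes or libraries some alternatives use. Each treatment rests on 1 library, and genes under 5 CPM in both libraries were not compared.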
